A study of Mus musculus with 12 samples.

Results

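Ribosomes are assembled in the nucleolus by a dedicated set of proteins, and 42 mouse genes for such proteins are described here across 12 RNA-seq libraries of cultured haematopoietic stem cells (HSCs). The genes were chosen by name, with earlier results of these data known, as factors of RNA polymerase I transcription, of rRNA modification, of subunit assembly or of nucleolar structure, with the polyamine enzyme Srm. Each had 1 row in the deposited table, which lists 40481 gene IDs, and all 42 were among the 14271 genes with at least 1 CPM (the reads of a gene scaled to a common library size) in at least 3 libraries.

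HSCs had been sorted from the fetal liver at E14.5 or from the bone marrow of animals 8 weeks old. They came from wild-type (WT) mice or from iE/R mice, here called ETV6-RUNX1 after the fusion of the ETS-family repressor ETV6 with the transcription factor RUNX1 that is frequent in childhood B-cell leukaemia. All cells, WT included, spent 3 days in HSC expansion culture with doxycycline at 1 µg/mL, so both genotypes were exposed to the drug and no library shows the iE/R allele without it. Each of the 4 groups had 3 libraries. The labels do not say which promoter drives the allele, whether all cells carry it, or whether libraries came from separate animals or pools, so p-values measure the spread between these libraries.

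The libraries held between 32.3 M and 64.5 M reads, and 3 reads amounted to between 0.0465 and 0.0928 CPM. The HSC label was checked with 11 genes, all of which passed the filter and which summed to between 2155 and 4416 CPM. In fetal liver their mean sums (2439 CPM in WT and 4028 CPM in ETV6-RUNX1) were below those of the megakaryocyte list (3981 and 7785 CPM). In bone marrow they were above it in both genotypes. Of 7 genes for T and NK cells, Cd3e had no read in any library and the list summed to between 0.278 and 2.28 CPM. The 9 B-cell genes summed to between 39.5 and 82.7 CPM, nearly all from Cd79b, and other lists are given below beside the results they moved with.

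Polymerase I, whose largest subunits are Polr1a and Polr1b, transcribes the long precursor of the 18S, 5.8S and 28S rRNAs. Small nucleolar ribonucleoproteins (snoRNPs) then modify that precursor. Many particles of the box C/D class (Fbl, the methyltransferase, with Nop56 and Nop58) methylate ribose. Rrp9 is on the U3 particle of that class. The box H/ACA class (Dkc1, the pseudouridine synthase, with Gar1, Nhp2 and Nop10) makes pseudouridine. Processome and export factors then build the small subunit, and a separate group builds the large one. Output of this pathway tracks growth and division in most tissues, and HSCs in vivo are known for a low rate of protein synthesis.

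The short sequences below show the E-box CACGTG, the site read by MYC with MAX and by related factors, and the ETS core CCGGAAG. Only E-box, ETS, RUNX, NRF1 and YY1 motifs were searched for. Of these, the members' start regions held the E-box and the ETS core most often. RefSeq start regions on GRCm38.p6, from 250 bases before to 50 bases after the first transcribed base, were found for 36 of the 42 genes. They were not found for Bop1, Fbl, Npm1, Rrp12, Rrs1 and Srm. Both strands were searched, and CACGTG reads the same on each. Capitals mark the E-box in these stretches of 30 bases, written 5′ to 3′ on the strand of the gene.
Grwd1 (chr7:45830740-45830769, minus strand): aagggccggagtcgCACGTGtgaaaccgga
Ltv1 (chr10:13193092-13193121, minus strand): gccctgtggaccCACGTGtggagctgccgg
Mybbp1a (chr11:72441347-72441376, plus strand): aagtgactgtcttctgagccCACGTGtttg
Nop2 (chr6:125131811-125131840, plus strand): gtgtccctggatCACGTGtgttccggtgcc
Pes1 (chr11:3963965-3963994, plus strand): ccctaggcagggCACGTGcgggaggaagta
Pno1 (chr11:17211540-17211569, minus strand): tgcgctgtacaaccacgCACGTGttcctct
Tsr1 (chr11:74898092-74898121, plus strand): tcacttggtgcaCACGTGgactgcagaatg
Utp20 (chr10:88826765-88826794, minus strand): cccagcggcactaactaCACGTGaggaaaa
Utp4 (chr8:106893643-106893672, plus strand): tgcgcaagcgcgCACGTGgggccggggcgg
Wdr43 (chr17:71616220-71616249, plus strand): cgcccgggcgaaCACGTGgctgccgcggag

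An E-box was found in the start regions of 10 of 36 members (27.8%), against 11.8% of the 9988 tested genes that have such a region and 8.09% of all 27025 genes in the RefSeq table. In 9 of these 10 it lay after the start, its first base between positions 3 and 41, and only in Nop2 did it lie before, at position -60. Counted after the start alone, the share was 25% of members against 1.88% of tested genes. Before the start it was 2.78% of members against 9.93% of tested genes. The E-box genes span the pathway, from the processome proteins Utp4, Utp20 and Wdr43 and the late small-subunit factors Ltv1, Pno1 and Tsr1 to the large-subunit factors Grwd1, Nop2 and Pes1 and the nucleolar protein Mybbp1a.

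The ETS core was found on either strand in 13 of 36 members (36.1%), against 20.4% of tested genes and 9.93% of all genes in the table. Both motifs were held by Grwd1, Ltv1, Nop2, Tsr1 and Utp4, none with a shared base, and the ETS match nearest to the start of each is given here, in capitals (CTTCCGG is the same core on the other strand).
Grwd1 (chr7:45830811-45830840, minus strand): gggaggtgaaacCCGGAAGtgacgctctca
Ltv1 (chr10:13193175-13193204, minus strand): gggctcacgcaaCTTCCGGctacagcctag
Nop2 (chr6:125131833-125131862, plus strand): ccggtgccgcggCCGGAAGaggcggggcgt
Tsr1 (chr11:74898067-74898096, plus strand): gctcgggtccgcCCGGAAGtagagttcact
Utp4 (chr8:106893609-106893638, plus strand): cgccgcggagtaCTTCCGGgacggcgctgt

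The RUNX core TGTGGT was found in 5 of 36 members (13.9%) and in 15.3% of tested genes. The longer NRF1 and YY1 motifs were found in 1 member each (2.78%), Pno1 and Grwd1, against 2.36% and 1.83% of tested genes. These matches are descriptions of letters in a window. Members with and without an E-box are given side by side: in fetal liver the median log2 difference was -0.79 over the 10 with it and -0.92 over the 26 without it.

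In fetal liver cells, 36 of the 42 genes fell with ETV6-RUNX1 and none rose (limma, Benjamini-Hochberg adjusted p under 0.05 over all genes tested). Among all genes tested, 18.3% were lower by this rule and 24.8% were higher, 43.1% in all. Over the 42 genes, the median difference in log2(CPM + 1) was -0.90, against 0.08 over all genes tested, and single genes ranged from -1.90 (Srm) to 0.27 (Polr1a). Called genes with a mean CPM at most at 50% of the WT mean numbered 16 of the 42, and the share of all genes tested that met this rule was not counted. The 3 ETV6-RUNX1 libraries all lay below the 3 WT libraries for 37 genes, a pattern that 23.3% of all genes tested showed. In these bulk libraries, fewer cells that make a transcript and less of it per cell cannot be told apart.

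Summed over the 42 genes, WT fetal liver libraries gave 10394 to 12055 CPM and ETV6-RUNX1 fetal liver libraries 5182 to 5551 CPM. WT bone marrow libraries gave 9171 to 10491 CPM and ETV6-RUNX1 bone marrow libraries 6691 to 7820 CPM. The genotypes did not overlap in either source, and the 3 ETV6-RUNX1 fetal liver libraries were the lowest of the 12. The map of all genes and libraries shows the same block of low values.

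**Figure D1:**
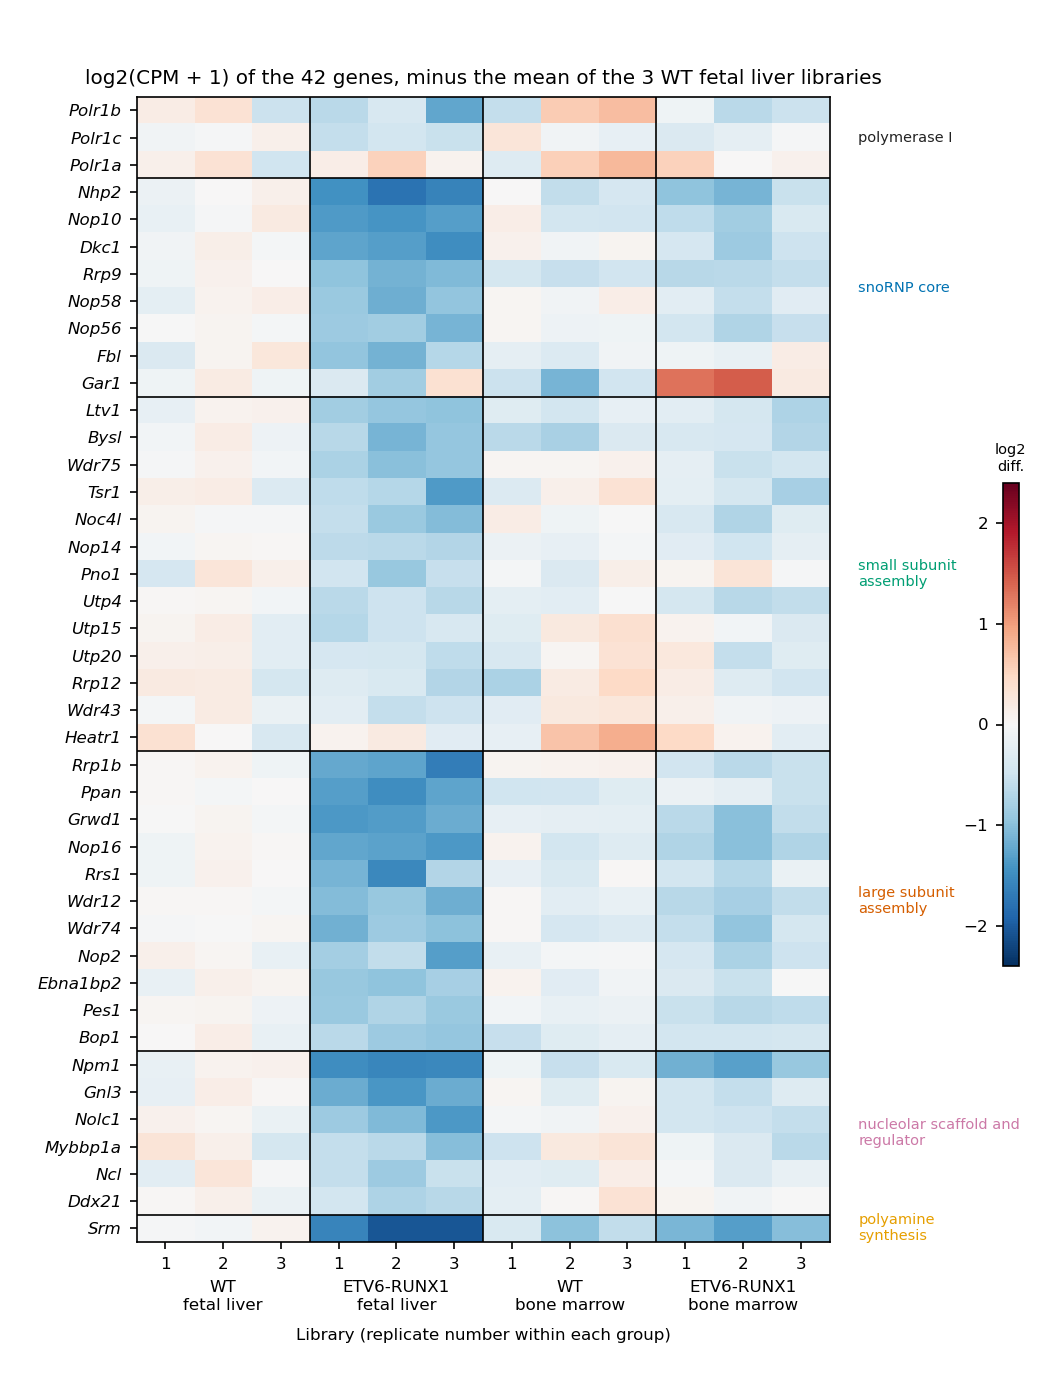
Difference in log2(CPM + 1) between each library (columns, 3 per group) and the mean of the 3 WT fetal liver libraries, for the 42 genes (rows, ordered by role and by genotype difference in fetal liver); blue is lower and red is higher. The ETV6-RUNX1 fetal liver columns are blue for nearly all genes other than Polr1a, Heatr1 and Gar1, and Gar1 is red in ETV6-RUNX1 bone marrow.

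In bone marrow cells the genes called were fewer and the differences smaller. With ETV6-RUNX1, 13 of the 42 fell and 1, Gar1, rose, where 4.93% of all genes tested were lower and 14.4% higher, 19.4% in all. The median log2 difference was -0.37, against 0.13 over all genes tested, and the range ran from -0.78 (Npm1) to 1.69 (Gar1). No called gene had a mean at or below 50% of the WT mean. The 3 ETV6-RUNX1 libraries lay below the 3 WT libraries for 19 genes (10.9% of all genes tested) and above them for Gar1 (23.6%). This count rested on single libraries more than that in fetal liver did: 6 genes were called with replicate 2 of ETV6-RUNX1 marrow left out, 9 with replicate 3 of WT marrow left out and 8 when the 6 bone marrow libraries were fitted alone. Median-of-ratios scaling moved the median of all genes in bone marrow from 0.13 to -0.001, and with it 49.4% in place of 25.5% of all calls were lower. Under it 19 members were lower and 1 higher.

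The 13 genes that fell in bone marrow all fell in fetal liver too, 36.1% of the 36 fetal liver calls: Dkc1, Grwd1, Nhp2, Noc4l, Nolc1, Nop16, Nop56, Npm1, Pes1, Rrp1b, Utp4, Wdr12 and Wdr75. Another 23 were called in fetal liver only, Gar1 in bone marrow only, and Heatr1, Polr1a, Polr1b, Rrp12 and Utp20 in neither source. Over all genes tested, 18.3% were lower in fetal liver and 4.93% in bone marrow, and the overlap of these calls was not counted. The difference between sources was tested as an interaction, the genotype difference in fetal liver minus that in bone marrow. It was below 0 by sign for 40 of 42 genes and passed the threshold for 16, all negative, where 3.62% of all genes tested passed in this direction and 5.56% in the other, 9.19% in all. Its median was -0.60, against -0.05 over all genes tested. The count moved between 6 and 27 under other settings: leaving out 1 library gave 7 (replicate 2 of WT or of ETV6-RUNX1 fetal liver), 9 (replicate 1 of ETV6-RUNX1 fetal liver), 6 (replicate 2 of WT marrow) or 8 (replicate 1 of ETV6-RUNX1 marrow). With the share of processed pseudogene reads as a covariate 6 were called, of which 3 (Bop1, Rrp1b and Ppan) were among the 16. Ppan alone was called under all 22 alternatives. Fbl, Rrp9, Gnl3 and Srm lost the call under 1 of them, the pseudogene covariate. Rrp1b lost it under 3, Bysl and Grwd1 under 4, Nhp2 under 5, Gar1 under 7, Nop10 and Bop1 under 9, Dkc1 and Ltv1 under 14 and Npm1 and Nop16 under 15.

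**Figure D2:**
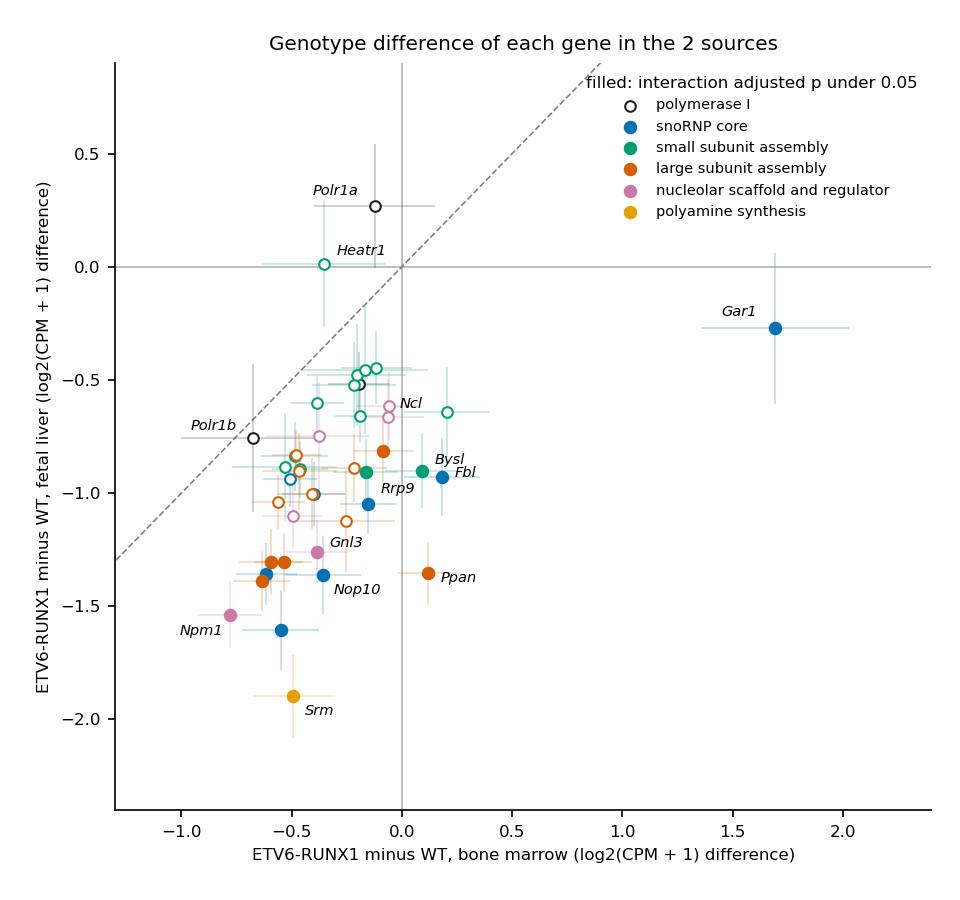
Genotype difference (ETV6-RUNX1 minus WT, log2(CPM + 1)) of each of the 42 genes in fetal liver (vertical) against bone marrow (horizontal), with standard errors as bars and colour by role; filled points passed the interaction test and the dashed line marks equal differences. Of the 42 points, 40 lie below the line, and Gar1 stands alone at the right.

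Npm1 (nucleophosmin, the abundant nucleolar chaperone that is recurrently mutated in myeloid leukaemia; chromosome 11, 33152287 to 33163206, minus strand, GRCm38) had the highest level per kilobase of exon in all 4 groups. Its fetal liver levels were 3082, 3679.8 and 3729.6 CPM in WT and 1233, 1184 and 1186 CPM in ETV6-RUNX1. In bone marrow they were 3229, 2378 and 2706 CPM in WT and 1572, 1412 and 1846 CPM in ETV6-RUNX1. The genotypes did not overlap in either source, and the ETV6-RUNX1 fetal liver libraries were the lowest of all. Npm1 fell by 1.54 on the log2 scale in fetal liver (SE 0.15, adjusted p = 2.15e-06) and by 0.78 in bone marrow (SE 0.15, adjusted p = 0.00305), and the interaction was -0.76 (adjusted p = 0.0365, lost under 15 of 22 alternatives). Reads on Npm1 can be shared with near-identical copies: 2 processed copies in the table summed to at most 5.97% of the gene's CPM in any library.

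Ncl, the histone-binding rRNA chaperone nucleolin, is the other abundant scaffold. Its fetal liver levels were 1210.2, 1755 and 1404 CPM in WT and 965, 787 and 989 CPM in ETV6-RUNX1, without overlap. In bone marrow they were 1212, 1181 and 1600.3 CPM in WT and 1392, 1127 and 1275 CPM in ETV6-RUNX1, with overlap. Ncl fell in fetal liver (log2 difference -0.66, SE 0.17, adjusted p = 0.00556), but not past the threshold under quantile normalization (adjusted p = 0.0618), and its difference in bone marrow was -0.06 (SE 0.17, adjusted p = 0.812).

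The remaining scaffolds and regulators all fell in fetal liver, so that 6 of 6 did, where 18.3% of all genes tested fell. Gnl3 (nucleostemin, a nucleolar GTPase of stem cells) stood at 170.2, 218 and 199 CPM in WT and 84.3, 73.6 and 85.4 CPM in ETV6-RUNX1 fetal liver, and at 202, 159 and 204 against 144, 131 and 156 CPM in bone marrow. No genotype overlapped the other within a source. Its log2 difference was -1.26 in fetal liver (adjusted p = 9.46e-06) and -0.38 in bone marrow (adjusted p = 0.0694), and the interaction passed at -0.87 (SE 0.20, adjusted p = 0.0146). Nolc1 (Nopp140, a snoRNP chaperone) fell in both sources, by 1.10 and 0.49. Its bone marrow call was lost under 4 of 23 alternatives, among them leaving out replicate 3 of WT or replicate 2 or 3 of ETV6-RUNX1 marrow. Mybbp1a, a repressor of MYB, fell by 0.75 in fetal liver and was at -0.38 in bone marrow (adjusted p = 0.270). Its fetal liver call was lost under 4 of 23 alternatives, among them leaving out replicate 1 or 2 of WT or replicate 3 of ETV6-RUNX1 fetal liver. The helicase Ddx21, which couples polymerase I and II output, had 146, 157 and 129 against 105, 86.0 and 90.3 CPM in fetal liver and 122, 146 and 183.4 against 149.6, 136 and 143 CPM in bone marrow. It fell in fetal liver (-0.61, adjusted p = 0.00468), and the groups overlapped in bone marrow (-0.06, adjusted p = 0.814).

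Srm, spermidine synthase of the polyamine pathway, is no assembly factor and had the largest fall of the 42. It lies on chromosome 4, 148591503 to 148594993, plus strand. Its levels were 54.2, 52.9 and 58.3 CPM in WT and 17.6, 12.6 and 12.5 CPM in ETV6-RUNX1 fetal liver. In bone marrow they were 42.3, 27.3 and 36.2 CPM in WT and 25.1, 21.5 and 26.7 CPM in ETV6-RUNX1. The fetal liver groups stood far apart, and the bone marrow groups were adjacent without overlap. The mean fell by 74.2% in fetal liver (log2 difference -1.90, SE 0.18, adjusted p = 2.34e-06). In bone marrow the log2 difference was -0.49 (adjusted p = 0.0721), which passed under 6 of 23 alternatives, and the interaction was -1.40 (adjusted p = 0.00399).

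**Figure D3:**
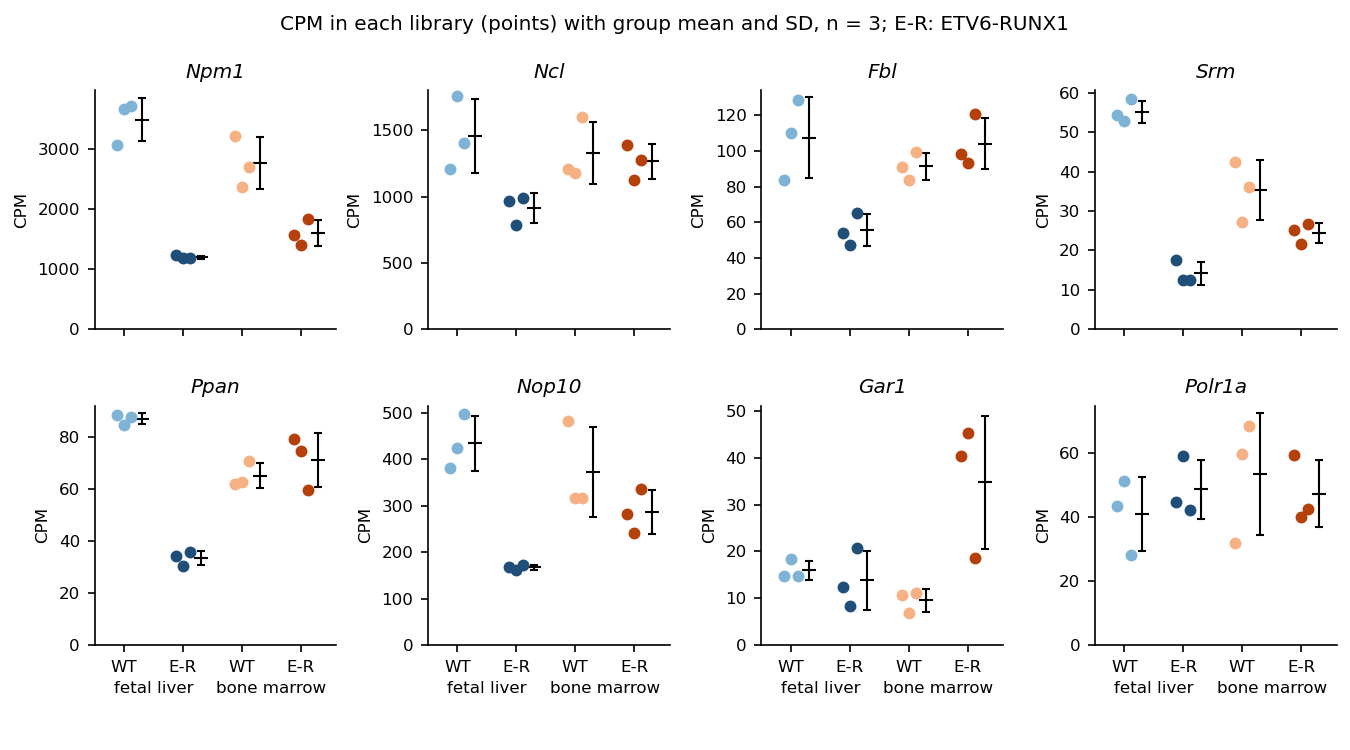
CPM of 8 genes in each library (points) with the group mean and SD (n = 3), WT and ETV6-RUNX1 (E-R) side by side for fetal liver and for bone marrow. Npm1, Srm, Ppan and Nop10 drop to tight low levels in ETV6-RUNX1 fetal liver, and the Polr1a groups overlap. Gar1 has its highest mean in ETV6-RUNX1 bone marrow, where replicate 3 lies within the range of the fetal liver libraries.

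The box H/ACA core separated by subunit. Dkc1, Nhp2 and Nop10 fell in fetal liver and Gar1, the fourth subunit of the same particle, did not pass. The standard error of the Gar1 difference there exceeded the difference itself. Nhp2 stood at 329, 363 and 394 CPM in WT and 132, 105 and 119 CPM in ETV6-RUNX1 fetal liver, the largest log2 difference of the group (-1.60, SE 0.18, adjusted p = 7.99e-06). Dkc1 (-1.36) and Nop10 (-1.36) were close to it. In bone marrow Dkc1 fell by 0.61 (adjusted p = 0.0080) and Nhp2 by 0.55 (adjusted p = 0.0410). The Nhp2 call was lost under 7 of 23 alternatives, among them leaving out any of WT bone marrow replicates 1 and 3 and ETV6-RUNX1 bone marrow replicates 1 and 2. Nhp2 stood there at 366, 241 and 272 against 184, 167 and 248 CPM, with overlap. Nop10 had 381, 424 and 498 against 168, 161 and 172 CPM in fetal liver, far apart, and 484, 317 and 316 against 283, 242 and 335 CPM in bone marrow, with overlap. Their interactions were -1.05 for Nhp2, -1.0 for Nop10 and -0.74 for Dkc1, calls that were lost under 5, 9 and 14 of 22 alternatives.

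Gar1 (chromosome 3, 129824912 to 129831396, minus strand) was the only member that rose in any genotype comparison. Its bone marrow levels were 10.8, 6.74 and 11.2 CPM in WT and 40.4, 45.3 and 18.5 CPM in ETV6-RUNX1, without overlap but with a wide spread. Its fetal liver levels were 14.7, 18.3 and 14.7 CPM in WT and 12.3, 8.40 and 20.7 CPM in ETV6-RUNX1, with overlap. The difference in bone marrow was 1.69 (SE 0.33, adjusted p = 0.00406), and it passed under all 23 alternatives. The difference in fetal liver was -0.27 (SE 0.33, adjusted p = 0.539), and the interaction was -1.96 (SE 0.47, adjusted p = 0.0195). The GENCODE M21 annotation lists no gene overlapping Gar1, and no near-identical copy was found.

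The box C/D proteins fell in fetal liver, 4 of 4, where 18.3% of all genes tested fell. Fbl stood at 83.5, 110.4 and 128 CPM in WT and 54.1, 47.4 and 65.2 CPM in ETV6-RUNX1. In bone marrow it stood at 91, 83.7 and 99.3 CPM in WT and 98.6, 93.4 and 121 CPM in ETV6-RUNX1. Fibrillarin thus separated by genotype in fetal liver and overlapped in bone marrow. Its log2 difference was -0.93 (SE 0.17, adjusted p = 6.76e-04) in the former and 0.18 (adjusted p = 0.484) in the latter, with an interaction of -1.11 (adjusted p = 0.0120). Rrp9, which recognizes U3 snoRNA, had 45.4, 52.0 and 48.6 against 24.5, 21.7 and 22.9 CPM in fetal liver and 36, 32.8 and 35.3 against 30.2, 30.6 and 32.6 CPM in bone marrow. It fell in fetal liver (-1.05), was at -0.15 in bone marrow (adjusted p = 0.430) and had an interaction of -0.90 (adjusted p = 0.0077). Nop56 fell in both sources (-0.94 and -0.51), though not in bone marrow without ETV6-RUNX1 replicate 2, and Nop58 fell in fetal liver (-1.0) and was at -0.40 in bone marrow (adjusted p = 0.0631).

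Several of these genes are also hosts of snoRNAs. In GENCODE M21, 8 of the 42 genes (19.0%) hold an annotated snoRNA on their own strand, against 1.73% of the 12026 protein-coding genes tested. Nop56 holds 5, Nop58 4, Wdr43, Ncl and Gnl3 3 each, Tsr1 and Ppan 2 each, and Dkc1 1. All 8 hosts fell in fetal liver, as did 36 of all 42 genes and 18.3% of all genes tested. How reads on the embedded snoRNAs were counted is not given in the sources used here.

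All 11 large-subunit factors fell in fetal liver, and 5 of them (Grwd1, Nop16, Pes1, Rrp1b and Wdr12) fell in bone marrow. Over all genes tested, 18.3% and 4.93% fell. Rrp1b had the largest fetal liver difference: 139.6, 146 and 128 CPM in WT against 58.0, 56.2 and 42.7 CPM in ETV6-RUNX1 (-1.39, SE 0.13, adjusted p = 2.11e-06). In bone marrow it stood at 144, 146 and 148 against 99.8, 87.6 and 94.1 CPM (-0.63, adjusted p = 0.00557). The groups were apart in both sources, and the interaction was -0.75 (adjusted p = 0.0227). Grwd1, a histone-binding WD-repeat protein, had 112, 118 and 108 against 42.4, 44.0 and 48.6 CPM in fetal liver (-1.31) and 98.6, 97.3 and 96.0 against 71.8, 55.8 and 74.3 CPM in bone marrow (-0.54, adjusted p = 0.0123). The Grwd1 call in bone marrow was lost without ETV6-RUNX1 replicate 2 (adjusted p = 0.0582) and with the 6 bone marrow libraries fitted alone (adjusted p = 0.0536).

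Ppan, the Brix-domain factor of the 27S precursor, had the smallest interaction p of the 42. It stood at 88.7, 84.9 and 88 CPM in WT and 34.5, 30.4 and 35.8 CPM in ETV6-RUNX1 fetal liver. In bone marrow it stood at 62.1, 62.9 and 70.9 CPM in WT and 79.2, 74.9 and 59.7 CPM in ETV6-RUNX1. The genotypes were widely apart in fetal liver and overlapped in bone marrow. Its log2 difference was -1.35 (SE 0.14, adjusted p = 3.50e-06) against 0.12 (SE 0.14, adjusted p = 0.577), and the interaction was -1.47 (SE 0.19, adjusted p = 3.61e-04). The sign in bone marrow turned negative under median-of-ratios scaling (-0.04) and in the count tests.

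The PeBoW complex, made of Pes1, Bop1 and Wdr12, fell together in fetal liver. Bop1 had the smallest difference of the large-subunit group there, with 119.6, 133 and 105 against 75.9, 64.7 and 61.6 CPM (-0.81, SE 0.14, adjusted p = 3.21e-04). In bone marrow Pes1 (-0.48) and Wdr12 (-0.56) fell and Bop1 did not pass, at 80.6, 96.8 and 102 against 87.4, 86.9 and 88 CPM (-0.08, adjusted p = 0.698). The interaction passed for Bop1 (-0.73, adjusted p = 0.0314), and not for Pes1 (-0.35, adjusted p = 0.173) or Wdr12 (-0.48, adjusted p = 0.0935). The rRNA methyltransferase Nop2 (-0.90), Ebna1bp2 (-0.89), Wdr74 (-1.0) and Rrs1 (-1.12) fell in fetal liver and did not pass in bone marrow. Nop16 fell in both (-1.31 and -0.59). Its bone marrow call was lost under 2 of 23 alternatives, among them leaving out ETV6-RUNX1 replicate 2.

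Of the 13 small-subunit factors, 10 fell in fetal liver, where 18.3% of all genes tested fell. The median over the 13 was -0.64, against -1.04 for the large-subunit factors and -1.03 for the snoRNP core, differences that were not tested. Ltv1, which brings Rps3 to the nascent subunit, led with 68.4, 83.6 and 84.5 CPM in WT against 43.7, 40.7 and 39.7 CPM in ETV6-RUNX1 (-0.91, SE 0.15, adjusted p = 2.44e-04). In bone marrow it stood at 64.0, 57.7 and 68.1 against 65.3, 58.1 and 46.8 CPM (-0.16, adjusted p = 0.459). The ranges were apart in fetal liver and overlapped in bone marrow, and the interaction was -0.74 (adjusted p = 0.0397).

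Bysl (bystin, a 40S assembly factor) had 61.5, 72.8 and 58.8 against 40.1, 29.0 and 33.3 CPM in fetal liver (-0.90, adjusted p = 6.64e-04). In bone marrow it had 40.8, 36.8 and 50.1 against 48.9, 47.9 and 38.9 CPM (0.09, adjusted p = 0.736, and -0.06 under median-of-ratios scaling). Its interaction was -0.99 (adjusted p = 0.0186). Pno1, partner of the endonuclease Nob1, had 40.3, 65.9 and 58.2 against 38.8, 28 and 36.2 CPM in fetal liver (-0.64, adjusted p = 0.0172). That call was lost without WT fetal liver replicate 2 (adjusted p = 0.0871) or 3 (0.0633), and with replicate 2 of the ETV6-RUNX1 group left out (0.0800). In bone marrow Pno1 had 51.7, 41.8 and 58.9 against 56.2, 66.6 and 52.4 CPM, with overlap, and was at 0.20 (adjusted p = 0.494). Among the UTP proteins and their neighbours, Utp4 (-0.60 and -0.38), Wdr75 (-0.90 and -0.46) and Noc4l (-0.84 and -0.49) fell in both sources. In bone marrow the call was lost under 9 of 23 alternatives for Utp4 and for Noc4l and under 3 for Wdr75, and leaving out replicate 3 of WT marrow or replicate 2 of ETV6-RUNX1 marrow ended all 3. Nop14 (-0.66), Tsr1 (-0.88), Utp15 (-0.52) and Wdr43 (-0.45) fell in fetal liver and did not pass in bone marrow. The fetal liver calls of Utp15 and Wdr43 were each lost under 6 of 23 alternatives, among them leaving out replicate 1 or 2 of WT or replicate 2 of ETV6-RUNX1 fetal liver. Leaving out replicate 1 of ETV6-RUNX1 ended the Utp15 call, and replicate 3 the Wdr43 call.

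Of the 6 members that did not pass in fetal liver, Heatr1, Utp20, Polr1a and Polr1b were among the 14 with the longest exons. Heatr1, a processome scaffold, had 35, 27.1 and 20.3 CPM in WT and 28.6, 31.3 and 22.2 CPM in ETV6-RUNX1 fetal liver, and 23.4, 43.7 and 50.1 against 37.9, 28.4 and 22.3 CPM in bone marrow. Its log2 differences were 0.01 (adjusted p = 0.975) and -0.35 (adjusted p = 0.391), and the first turned negative under median-of-ratios scaling (-0.06). Utp20 (-0.48, adjusted p = 0.10) and Rrp12 (-0.46, adjusted p = 0.212) did not pass in fetal liver. Utp20 passed under 7 of 23 alternatives, among them median-of-ratios scaling, edgeR and DESeq2, and Rrp12 under 2, quantile normalization and the pseudogene covariate.

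Polr1a and Polr1b, which form the catalytic core of polymerase I, varied more between replicates than most members. Polr1a stood at 43.5, 51.2 and 28.3 CPM in WT and 44.8, 59.2 and 42.1 CPM in ETV6-RUNX1 fetal liver, and at 32, 59.8 and 68.6 against 59.3, 40.1 and 42.6 CPM in bone marrow. The groups overlapped in both, with differences of 0.27 (SE 0.28, adjusted p = 0.456) and -0.12 (SE 0.28, adjusted p = 0.784). Polr1b had 62.3, 69.9 and 38.2 against 34.6, 42 and 22.8 CPM in fetal liver, and 36.8, 84.0 and 92.5 against 51.5, 34.9 and 38.2 CPM in bone marrow. Its differences, -0.76 (SE 0.33, adjusted p = 0.0749) and -0.67 (SE 0.33, adjusted p = 0.160), were as large as those of many called genes. In fetal liver Polr1b passed under 9 of 23 alternatives: median-of-ratios scaling, quantile normalization, array weights, edgeR, DESeq2, the pseudogene covariate, a fit of the 6 fetal liver libraries alone, and without WT fetal liver replicate 3 or WT bone marrow replicate 1. In bone marrow it passed under 4: array weights, edgeR, DESeq2 and without WT bone marrow replicate 1. Polr1c, shared with polymerase III, was steadier and fell in fetal liver (-0.52, SE 0.14, adjusted p = 0.00884), a call lost under 1 of 23 alternatives.

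WT fetal liver replicate 3 and WT bone marrow replicate 1 were the lowest of their groups for some members. Among these were Polr1a, Polr1b, Heatr1, Rrp12, Bop1, Tsr1 and Mybbp1a. For others, among them Npm1, Nop10, Nhp2 and Polr1c, they were the highest of their groups. These 2 libraries also had the highest share of reads on processed pseudogenes in their groups, 2.53% and 2.39%. Across the 42 genes, the total exon length correlated with the fetal liver difference (Pearson r = 0.43, Spearman rho = 0.33) and with the interaction (0.52 and 0.49), and less with the bone marrow difference (-0.12 and 0.04). Over all 14271 genes the values were 0.20 and 0.28, 0.25 and 0.32, and 0.003 and 0.03. These are correlations across genes of the same 12 libraries, and genes are not independent replicates. The 14 shortest members had a median fetal liver difference of -1.06, with 13 called lower, and the 14 longest one of -0.71, with 10 called lower. The part of exon length and of these 2 libraries in the differences was not tested.

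Per kilobase of exon, Npm1, Nop10 and Nhp2 had the highest levels and Utp20 the lowest in all 4 groups. In WT fetal liver Npm1 was at 1312 CPM per kilobase, Nop10 at 392, Nhp2 at 316, Nop56 at 166 and Ncl at 143. At the other end, Utp20 was at 2.68, Heatr1 at 3.51 and Polr1a at 3.45 CPM per kilobase. The exon length was the union over all annotated transcripts, so a gene with many transcripts, such as Wdr12, can be placed too low. With ETV6-RUNX1 in fetal liver, Npm1 was at 451, Nop10 at 151 and Nhp2 at 103 CPM per kilobase.

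Between sources, WT cells differed in few of the 42 genes. Rrp9, Bysl and Srm were higher in fetal liver than in bone marrow (log2 differences 0.47, 0.59 and 0.65, with adjusted p = 0.0272, 0.0334 and 0.0324) and none was lower, where 3.38% of all genes tested were higher and 7.77% lower. The median was 0.09, against -0.07 over all genes tested. None of the 3 calls was kept when WT fetal liver replicate 2 or 3 or WT bone marrow replicate 2 was left out. In ETV6-RUNX1 cells, 25 of the 42 were lower in fetal liver than in bone marrow and none higher, where 18.2% of all genes tested were lower and 10.4% higher. The median was -0.42, against -0.16 over all genes tested. This count fell to 13 under median-of-ratios scaling, which moved the all-gene median from -0.16 to -5.75e-05 and the lower share of all calls from 63.7% to 41.3%. It was 14 with replicate 1 of ETV6-RUNX1 marrow left out and 16 with replicate 2 of ETV6-RUNX1 fetal liver left out. The source comparisons share their libraries with the genotype comparisons and add no separate samples.

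Genes of the same pathway outside the 42 moved in the same direction. Of 123 further genes listed for polymerase I, snoRNP assembly, small- and large-subunit assembly and the RNA exosome, 121 were tested. In fetal liver 71 fell and none rose, with a median of -0.54, where 18.3% of all genes tested fell and 24.8% rose. In bone marrow 21 fell and 5 rose, with a median of -0.20, where 4.93% of all genes tested fell and 14.4% rose. The interaction passed for 19, all negative, where 3.62% of all genes tested passed in that direction. The snoRNP assembly ATPases Ruvbl1 and Ruvbl2 fell from 248 to 105 CPM (-1.23) and from 245 to 99.8 CPM (-1.29) in fetal liver, and their interactions were -0.91 and -0.98. The polymerase I subunits Polr1e (-1.35) and Cd3eap (-0.96), the small-subunit factors Rcl1 (-1.17) and Emg1 (-0.99), the large-subunit factors Mrto4 (-1.36) and Lyar (-1.35) and the exosome subunits Exosc8 (-1.07) and Exosc1 (-1.05) had the largest called differences of their lists.

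In bone marrow 5 genes of these lists rose, of 121 tested, where 14.4% of all genes tested did. Wdr46 (0.62) and Imp3 (0.74) rose there and fell in fetal liver, with interactions of -1.47 and -1.45. Pelp1 (0.86), Ddx54 (0.90) and Nop53 (1.07) rose there, and in fetal liver they did not pass, at -0.25, -0.33 and 0.10.

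**Figure D4:**
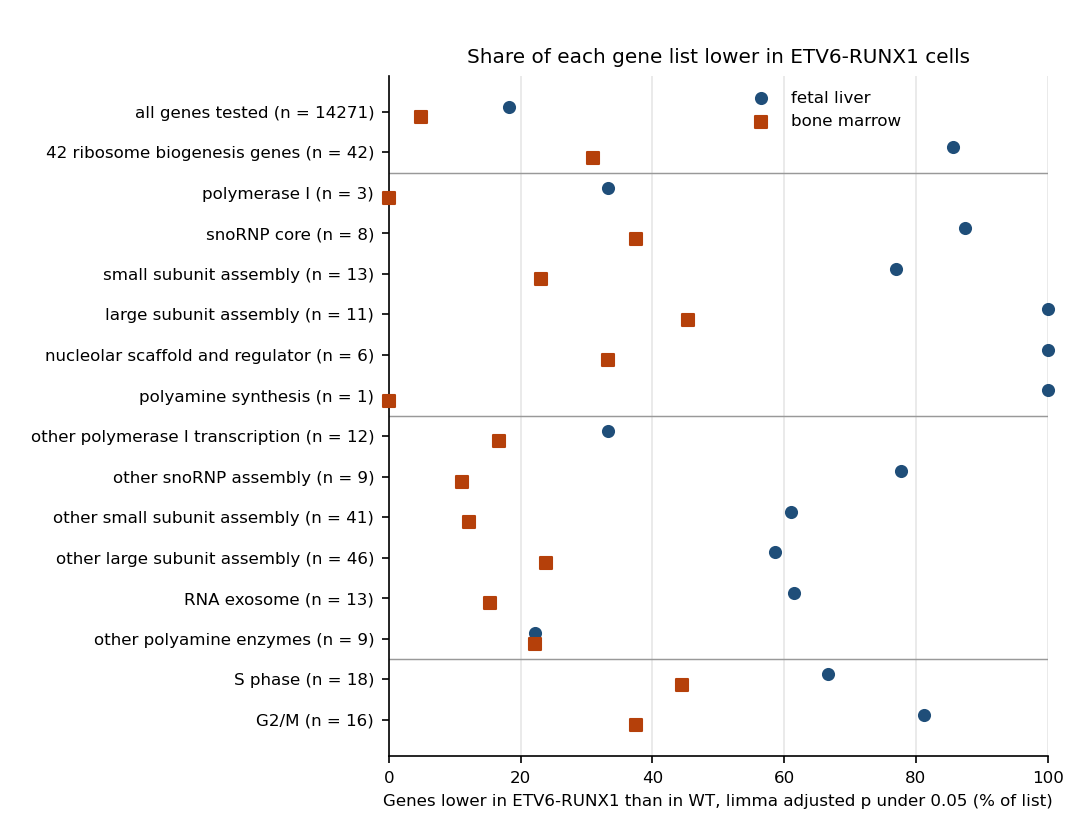
Percent of each gene list that was lower in ETV6-RUNX1 than in WT (limma adjusted p under 0.05) in fetal liver (circles) and bone marrow (squares), for all genes, the 42 genes and their roles, other lists of the pathway, and cell-cycle genes. All genes stand at 18.3% and 4.93% and the 42 genes at 85.7% and 31.0%.

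Of 9 other polyamine genes tested, 2 rose and 2 fell in fetal liver, 22.2% each, near the shares over all genes tested (24.8% and 18.3%). Sat1, which acetylates spermidine and spermine for breakdown or export, rose from 88.1 ± 6.92 to 322 ± 8.49 CPM (SD, n = 3; log2 difference 1.86, adjusted p = 4.22e-07 by limma), and the antizyme gene Oaz2 rose by 0.50. Spermine synthase Sms (-0.38) and Oaz1 (-0.47) fell. In bone marrow Sat1 rose by 0.57, and its interaction passed at 1.29 (adjusted p = 0.00217).

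Cell-cycle genes moved in the same samples. Of 18 S-phase genes, 12 fell in fetal liver and 8 in bone marrow, and of 16 G2/M genes, 13 and 6, with none rising. Over all genes tested, 18.3% fell in fetal liver and 4.93% in bone marrow. The summed S-phase level was 3543 to 4138 CPM in WT and 2237 to 2757 CPM in ETV6-RUNX1 fetal liver, and 4306 to 5230.2 against 3042 to 4137 CPM in bone marrow. The summed G2/M level was 2776 to 3209.6 against 1559 to 1915 CPM in fetal liver and 2881 to 3604 against 2139.9 to 2591 CPM in bone marrow. The genotypes did not overlap for either list in either source. The interaction passed for 1 of 18 and 3 of 16 of these genes, all below 0. It passed for 16 of the 42 ribosome biogenesis genes (6 to 27 under other settings) and, below 0, for 3.62% of all genes tested. By sign it was below 0 for 15 of 18 S-phase and 15 of 16 G2/M genes and for 40 of the 42. The medians were -0.32, -0.26 and -0.60, and the contrast between these lists was not tested.

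Markers of megakaryocytes moved with the fetal liver result as well. The 10 genes summed to 3128 to 4641 CPM in WT and 7377 to 8175 CPM in ETV6-RUNX1 fetal liver, with 5 rising and Gp9 falling. In bone marrow they summed to 1379 to 1844 CPM in WT and 478 to 2122 CPM in ETV6-RUNX1, with overlap. Of 9 erythroid genes tested of 11, 7 rose in fetal liver. Their sum went from 1656 to 2135 CPM up to 2475 to 3334 CPM, and the group means of Klf1 lay between 0.175 and 1.00 CPM. Of 11 HSC genes, 9 rose in fetal liver and 5 in bone marrow, and none fell. Over all genes tested, 24.8% rose and 18.3% fell in fetal liver, and 14.4% rose and 4.93% fell in bone marrow. The granulocyte-monocyte list summed to 443 to 551 CPM in WT and 682 to 880 CPM in ETV6-RUNX1 fetal liver. Of its 6 tested genes, 3 rose and 2 fell there, with a median log2 difference of 0.098. The endothelial and stromal list summed to 75.2 to 107 against 147 to 178 CPM in fetal liver. Of its 5 tested genes, 2 rose and 1 fell there, with a median of -0.16. In bone marrow the granulocyte-monocyte sums were 381 to 624 CPM in WT and 363 to 545 CPM in ETV6-RUNX1, with overlap. The endothelial and stromal sums overlapped there too. The 7 hepatoblast genes summed to 40.1 to 53.2 CPM in WT and 20.5 to 24.2 CPM in ETV6-RUNX1 fetal liver, without overlap, with 2 of 4 tested genes falling and Fgb at 0. In bone marrow they summed to 22 to 37.2 against 25.9 to 38.5 CPM. The 10 mast cell and basophil genes summed to 27.9 to 45.6 CPM in WT and 9.35 to 16.2 CPM in ETV6-RUNX1 marrow, without overlap, with 2 of 4 tested genes falling, and to 7.78 to 12.5 against 7.65 to 13.6 CPM in fetal liver. The share of mitochondrial reads was 1.35 to 1.69% in WT and 0.923 to 1.11% in ETV6-RUNX1 fetal liver, without overlap, and 1.4 to 1.85% against 1.41 to 1.68% in bone marrow. The share on processed pseudogenes was 1.77 to 2.53% against 1.33 to 2.06% in fetal liver and 1.72 to 2.39% against 2.29 to 2.74% in bone marrow. The part of cell-cycle state, of cell makeup and of the mitochondrial share in the ribosome biogenesis differences was not tested.

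Some of the 42 genes overlap a gene on the other strand, and whether counting used strand is not given in the sources used here. Nop56 with Idh3b, Rrp9 with Parp3, Dkc1 with Mpp1, Nhp2 with Rmnd5b, Heatr1 with Lgals8, Bysl with Ccnd3, Pno1 with Wdr92, Gnl3 with Pbrm1, Mybbp1a with Spns2, Bop1 with Mroh1, Wdr12 with Carf and Tsr1 with Srr are the pairs whose partner is protein-coding and reached 5 CPM in a library, so reads in the shared bases are uncertain. Near-identical processed copies were found for 5 of the 42 (Npm1, Nop56, Pes1, Wdr12 and Fbl). For Wdr12 the copy reached 9.21% of the gene's CPM in its highest library.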

How the data were processed

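RNA from 12 libraries was made with a stranded total RNA kit and sequenced as paired ends, per the labels' protocols. The authors deposited 1 table of CPM per gene. Per the submitters' processing notes the build was GRCm38, and STAR 2.5.1a, Salmon 0.8.2 and featureCounts 1.4.6-p5 were among the tools. Their roles, the annotation and the strand setting are not given in the sources used here. Low CPM values were whole multiples of 1 read (100% of values within 0.001), which gave back the reads and the depth.

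Genes that reached 1 CPM in 3 or more libraries were fitted as log2(CPM + 1) with limma 3.58.1 (4 group means, trended variance, two-sided, Benjamini-Hochberg over all 14271 genes tested). Log2 differences understate changes of low genes. Values per group have n = 3. The members and gene lists were chosen with earlier results of these data known. All 42 members are named. Values in every library are given for the members with the largest and smallest fetal liver difference of each role, those whose sign goes against most, the 10 with the smallest interaction p, and Npm1, Ncl, Fbl and Srm, with a few more for their role. Other pathway lists are represented by their 2 largest called fetal liver differences and up to 3 genes called in the opposite direction. Alternatives were other pseudocounts, filters and scalings, array weights, a replicate block, a pseudogene-share covariate, edgeR 4.0.16, DESeq2 1.42.0 and leaving out each library. The test was tried on simulated data.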

Additional observations from a re-analysis of the deposited data

Results flagged for a closer look

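In 16 of the 42 genes the genotype difference in fetal liver and that in bone marrow differed by the interaction test (limma, Benjamini-Hochberg adjusted p under 0.05), and each is given here as the log2 difference in fetal liver minus that in bone marrow. In the snoRNP core it was -1.96 for Gar1, -1.11 for Fbl, -1.05 for Nhp2, -1.0 for Nop10, -0.90 for Rrp9 and -0.74 for Dkc1. Among the large-subunit factors it was -1.47 for Ppan, -0.77 for Grwd1, -0.75 for Rrp1b, -0.73 for Bop1 and -0.71 for Nop16. Among the small-subunit factors it was -0.99 for Bysl and -0.74 for Ltv1. For the scaffold proteins it was -0.87 for Gnl3 and -0.76 for Npm1, and for Srm -1.40. Of these genes, Gar1 rose in bone marrow and did not pass in fetal liver, and the other 15 fell in fetal liver. Of the 15, Dkc1, Nhp2, Nop16, Rrp1b, Grwd1 and Npm1 also fell in bone marrow, where the other 9 did not pass. Over all genes tested, 9.19% passed the interaction test, 3.62% with a value below 0. Of the 16 calls, that of Ppan alone was kept under all 22 alternatives, and 15 were lost under 1 or more.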

How the results depend on the processing

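Under the 23 alternatives for each comparison (22 for the interaction), the count of members called in fetal liver lay between 32 and 38. The median over the 42 genes there lay between -1.0 and -0.85, and 30 of the 36 calls were kept under all. The 14 calls in bone marrow became 20 with median-of-ratios scaling and 21 with edgeR or DESeq2, with all 14 kept, 8 with only the groups compared, and 6 to 15 with a library left out, and 6 were kept under all. The bone marrow median over the 42 genes moved from -0.37 to -0.52 under median-of-ratios scaling, -0.54 with edgeR and -0.53 with DESeq2. The 16 interactions became 8 with no filter on low values, 27 with array weights, 10 with edgeR and 6 with the share of processed pseudogenes as a covariate (3 of the 16 kept and 3 others gained), and 6 to 19 with a library left out. The 3 WT source calls became 1 with no filter or with only the groups compared, 5 with median-of-ratios scaling, edgeR, DESeq2 or the pseudogene covariate, 13 with array weights (1 of them lower), and 0 to 6 with a library left out. The 25 ETV6-RUNX1 source calls became 13 with median-of-ratios scaling or edgeR, 14 with DESeq2, 15 with the pseudogene covariate and 14 to 28 with a library left out. The median of this comparison over the 42 genes became -0.24, -0.27 and -0.27 with median-of-ratios scaling, edgeR and DESeq2. The cause was not tested for any of these.

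The replicate numbers do not state a shared animal or day. Of 18 same-numbered pairs, 7 had deviations from their group means that correlated above 0.1 (range -0.44 to 0.39). Of 36 cases, 8 correlated best with their own number. With 3 libraries per group, these values cannot decide whether same-numbered libraries were paired. With a replicate block the counts were 34 in fetal liver, 13 in bone marrow, 11 for the interaction, 1 for the WT source comparison and 19 for the ETV6-RUNX1 source comparison.

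Over the 42 genes, 5 comparisons and these alternatives, 0 signs turned for a gene called in either fit. For the genes whose values are given by library, signs in the genotype comparisons turned as follows. In fetal liver, Heatr1 was at -0.061 with median-of-ratios scaling, -0.22 with quantile normalization, -0.095 with edgeR, -0.071 with DESeq2 and -0.51 with the pseudogene covariate, and between -0.18 and 0.20 with a library left out. Gar1 lay between -0.59 and 0.013 with a library left out, and Polr1a was at -0.15 with the pseudogene covariate. In bone marrow the pseudogene covariate gave 0.056 for Bop1, 0.067 for Ddx21, -0.10 for Fbl, 0.19 for Heatr1 and 0.31 for Polr1a. Bysl was at -0.063 with median-of-ratios scaling, -0.058 with quantile normalization and DESeq2, and -0.067 with edgeR. Ppan was at -0.037 with median-of-ratios scaling, -0.029 with edgeR and -0.020 with DESeq2, and Ncl at 0.10 with quantile normalization. With a library left out, Bysl lay between -0.0063 and 0.21, Ddx21 between -0.20 and 0.093, Ncl between -0.14 and 0.075 and Polr1a between -0.45 and 0.089. Over all genes, edgeR called 6178, 2739 and 1105 and DESeq2 6540, 3297 and 1769 for fetal liver, bone marrow and the interaction, against 6151, 2763 and 1311 with limma.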
